A study of Homo sapiens with 8 samples.

Results

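Ribosome footprints are described here for 9 genes: RNF14, the gene knocked out in the study, and 8 further genes. These 8 encode factors tied to the ribosome, among them factors of stalling and of termination. The 8 are RNF25, GCN1, EIF2AK4, IMPACT, DRG1, ZC3H15, ETF1 and GSPT1. The genes were chosen by Ensembl gene ID for their known roles (RNF14 ENSG00000013561, RNF25 ENSG00000163481, GCN1 ENSG00000089154, EIF2AK4 ENSG00000128829, IMPACT ENSG00000154059, DRG1 ENSG00000185721, ZC3H15 ENSG00000065548, ETF1 ENSG00000120705, GSPT1 ENSG00000103342), and all 9 were found among the 19580 transcripts of the deposited table, which lists 1 transcript per gene. All 9 also passed the filter on low values, a mean RPKM of 1 or more, that left 11920 transcripts for testing. RPKM is the number of reads scaled to transcript length and to the reads of the library.

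The cells were HAP1, a near-haploid human line that grows attached and goes back to a chronic myeloid leukaemia. Wild-type cells (WT) were compared with cells labelled RNF14 knockout (KO), both after 18 h with 5 uM 4-thiouridine (4SU) and irradiation with 6 kJ/m2 UVA. 4SU is a uridine analogue that enters new RNA and crosslinks to bound proteins under UVA. Cells were harvested at 0 or 30 min of recovery, which with the genotypes made 4 groups of 2 biological replicates. No library came from untreated cells. The sources used here do not give the knockout allele or the number of clones.

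When ribosomes stall, GCN1, a very large scaffold protein, sits on the stalled or collided ribosomes and recruits other factors. RNF14 and RNF25 are E3 ubiquitin ligases that work with GCN1 to mark proteins trapped on the ribosome, among them elongation and release factors, for degradation. GCN1 also activates the kinase GCN2, encoded by EIF2AK4, which phosphorylates the initiation factor eIF2, and IMPACT competes with GCN2 for GCN1. RNF14, RNF25, GCN2 and IMPACT share an RWD domain, a fold through which GCN2 and IMPACT bind GCN1. DRG1 is a ribosome-binding GTPase kept stable by its partner ZC3H15 (also called DFRP1). ETF1 encodes eRF1, which reads stop codons and releases the finished protein, and GSPT1 encodes eRF3a, the GTPase that delivers eRF1 to the ribosome.

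On GRCh38.p14, as RefSeq places them, RNF14 lies at chr5:141949337-141990292 and ETF1 at chr5:138506095-138543236, a gap of 3.41 Mb on the same chromosome. RNF25 lies at chr2:218663892-218672002 and ZC3H15 at chr2:186486260-186509361, which are 32.2 Mb apart. GCN1 is at chr12:120127202-120194715, EIF2AK4 at chr15:39934115-40035591 and IMPACT at chr18:24426670-24453531. DRG1 is at chr22:31399604-31434452 and GSPT1 at chr16:11868128-11916654. The transcripts counted for them ran from 1477 nt (RNF25) to 8681 nt (GCN1). The table gives 1 value per whole transcript, so where on a transcript the footprints lay, in the coding sequence or in an untranslated region, is not known from it. The transcript listed for EIF2AK4, of 3548 nt, is shorter than the coding sequence of full-length GCN2, so its value covers only a part of that message.

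Libraries held between 323946 and 1241975 reads, recovered as whole numbers from RPKM and length. The 4 libraries at 30 min were all shallower than the 4 at 0 min, and the shallowest was knockout at 30 min replicate 1. The correlation between the replicates of a group over the tested transcripts was lowest, at 0.90, in the knockout at 30 min. The 9 transcripts together took between 0.0629% and 0.0888% of a library's reads, from 257 to 890 reads. With so few reads, counting error is a large part of the spread for most of them. The files pair no gene names with the Ensembl IDs, so markers of HAP1 cells and further genes of the pathway could not be looked up.

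Footprints on RNF14, the knocked-out gene, were not lower in the knockout. The wild-type libraries had 6.74 and 7.46 RPKM at 0 min and 7.66 and 7.75 RPKM at 30 min. The knockout libraries had 11.1 and 8.67 RPKM at 0 min and 5.40 and 10.3 RPKM at 30 min. Of the 4 knockout libraries, 3 thus lay above all wild-type libraries, and 1, the shallowest, lay below them. The level of RNF14 footprints therefore does not separate the libraries labelled knockout from those labelled wild type.

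The counts behind these values were small. RNF14 had 24, 29, 22 and 16 reads in the wild-type libraries and 55, 27, 7 and 19 reads in the knockout libraries, in the same order. Summed over both times, 108 knockout reads against 91 wild-type reads made the knockout's share of reads 1.31 times that of wild type, and the exact 95% binomial (Clopper-Pearson) interval ran from 0.983 to 1.75. The interval covers counting error only, and its lower bound lies just under equal shares. Summing reads gives the deeper libraries at 0 min more weight, and more so in the knockout, so this ratio mixes genotype with time. At 0 min the ratio was 1.43 (0.997 to 2.05), and at 30 min, on 26 and 38 reads, it was 1.08 (0.629 to 1.82). In the fit over all transcripts (limma-trend on log2(RPKM + 1), 8 libraries) the difference, knockout minus wild type averaged over both times, was 0.19 (SE 0.25, 95% interval from -0.36 to 0.74, limma adjusted p = 0.822). Without knockout 30 min replicate 1 it was 0.40, and without knockout 30 min replicate 2 it was -0.01, so its sign rests on which of those libraries is kept. Footprints per transcript do not measure the RNF14 protein, and since no RNA abundance was analysed here, a different amount of message and a different number of ribosomes on it cannot be told apart for any of the 9 genes.

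**Figure D1:**
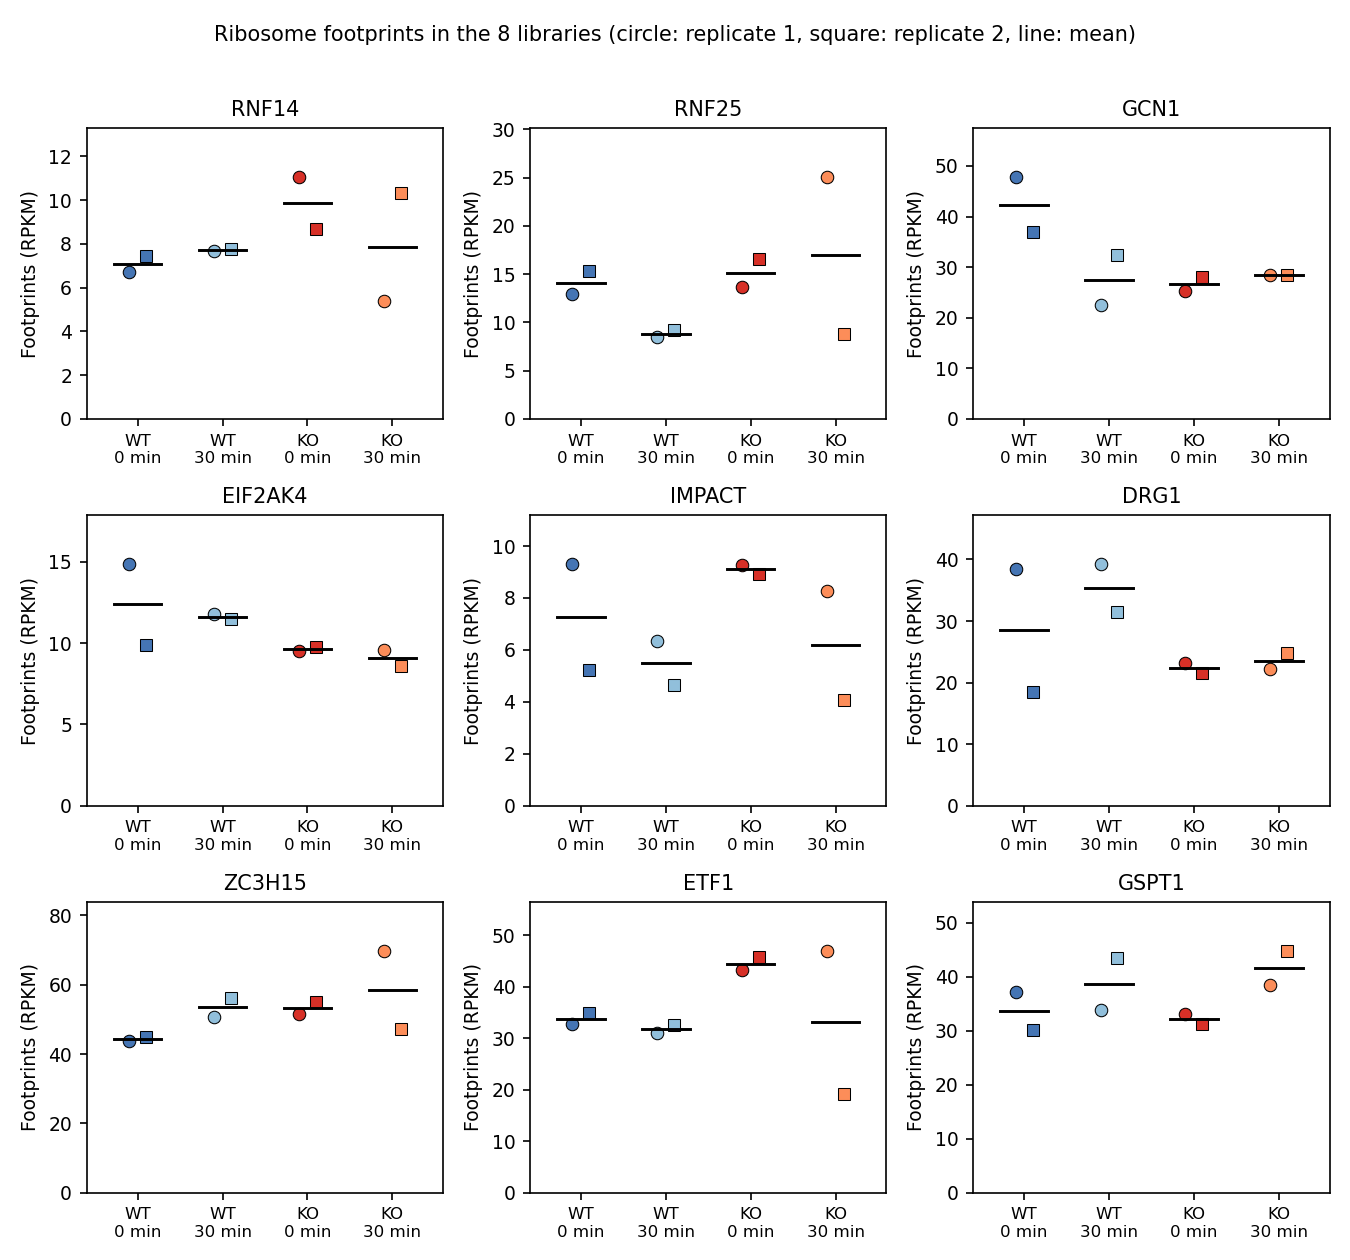
Footprints of the 9 genes in RPKM (vertical axes, each from 0) in wild-type (WT) and RNF14 knockout (KO) libraries at 0 and 30 min. Circles are replicate 1, squares replicate 2 and lines group means. RNF14 is not lower in the knockout, GCN1 is highest in both libraries of wild type at 0 min, and RNF25 and ETF1 have replicates far apart in the knockout at 30 min.

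By group, RNF14 stood at 7.10 ± 0.512 RPKM in wild type at 0 min and 7.71 ± 0.0593 RPKM at 30 min (SD, n = 2 each). In the knockout it stood at 9.87 ± 1.70 RPKM at 0 min and 7.87 ± 3.49 RPKM at 30 min (SD, n = 2 each). In that order of means, from knockout at 0 min down to wild type at 0 min, neighbouring groups overlapped except wild type at 30 and 0 min, whose ranges lay apart by a small gap. Averaged over genotypes, 30 minus 0 min was -0.12 (SE 0.25, limma adjusted p = 0.813), and the difference between the recoveries was -0.45 (SE 0.50, limma adjusted p = 0.714). At 30 min alone the genotypes differed by -0.03 (SE 0.35, limma adjusted p = 0.986), a value whose sign turned with TPM scaling and with the count model, limma voom.

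The transcripts most like RNF14 over the 8 libraries, by Pearson's r of log2(RPKM + 1) among 7343 tested transcripts with a mean of at least 20 reads, were ENSG00000146842.17 (r = 0.96), ENSG00000213593.10 (r = 0.94) and one of 4870 nt (r = 0.94). They are the top of many candidates over few libraries that share depth and treatment, and these values are a description. None of the other 8 genes had a positive r with RNF14, and their values ran from -0.50 (RNF25) to -0.02 (GSPT1). How many of all candidates had a negative r was not counted, so this does not set the 8 genes apart. The lowest RNF14 value, in the shallowest library, rested on 7 reads.

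RNF25, the second ligase, had few reads, from 6 to 25 a library. It was at 12.9 and 15.3 RPKM (wild type, 0 min), 8.49 and 9.18 RPKM (wild type, 30 min), 13.6 and 16.5 RPKM (knockout, 0 min) and 25.1 and 8.85 RPKM (knockout, 30 min). Both wild-type libraries at 30 min were below both at 0 min, whereas in the knockout the 30 min replicates lay on either side of those at 0 min. The higher of them, the shallowest library, rested on 12 reads and the lower on 6. In order of group means, RNF25 stood at 17.0 ± 11.5 RPKM (knockout, 30 min), 15.1 ± 2.04 RPKM (knockout, 0 min), 14.1 ± 1.70 RPKM (wild type, 0 min) and 8.83 ± 0.487 RPKM (wild type, 30 min), each with SD over 2 libraries. Neighbours in that order overlapped except for the last pair. The fitted genotype difference was 0.40 (SE 0.29, limma adjusted p = 0.654) over both times and 0.71 (SE 0.41, limma adjusted p = 0.562) at 30 min. Both values rest on which knockout library at 30 min is kept. At 30 min the difference was 1.41 (limma adjusted p = 0.0744) without replicate 2 of that group and 0.0028 (limma adjusted p = 1) without replicate 1, and averaged over times it was 0.75 (limma adjusted p = 0.138) and 0.045 (limma adjusted p = 0.952) in the same order.

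GCN1 had the most reads of the 9, between 80 and 370 a library, and the clearest single difference in counting terms. In wild type at 0 min its libraries were at 47.9 and 36.9 RPKM, the 2 highest of all 8. Wild type at 30 min had 22.5 and 32.3 RPKM. The knockout had 25.3 and 28.1 RPKM at 0 min and 28.4 and 28.3 RPKM at 30 min. Directly after irradiation, both knockout libraries thus lay below both wild-type libraries, with 26.7 ± 1.97 against 42.4 ± 7.77 RPKM (SD, n = 2 each). At 30 min the knockout lay inside the wild-type range, with 28.4 ± 0.0724 against 27.4 ± 6.98 RPKM (SD, n = 2 each).

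At 0 min, GCN1 had 463 reads in the knockout and 681 in wild type, a ratio of read shares of 0.627 with a counting interval from 0.556 to 0.706. The wild-type replicates themselves differed by more than counting error, at a ratio of 1.30 (1.11 to 1.51) at 0 min and 0.695 (0.547 to 0.882) at 30 min. The fitted difference at 0 min was -0.64 (SE 0.25, 95% interval from -1.20 to -0.07), which had an unadjusted p of 0.0303 and did not pass after adjustment (limma adjusted p = 0.317). Of all tested transcripts, 13.9% had a lower value in this comparison and 13.6% had an unadjusted p below 0.05. The count model on recovered reads called it, at -0.66 (SE 0.18, limma voom adjusted p = 0.0195), and it called 6.95% of all tested transcripts in this comparison. Over all alternatives its adjusted p ran from 0.0195 to 0.806 and its value from -0.82 to -0.45, and the largest p came without wild type 0 min replicate 1. At 30 min the difference was 0.07 (SE 0.25, limma adjusted p = 0.945), and its sign turned to -0.00134 with median centring. Averaged over times it was -0.28 (SE 0.18, limma adjusted p = 0.592).

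During recovery, wild-type reads on GCN1 went from 681 to 285, a ratio of shares of 0.631 (0.548 to 0.726), and knockout reads from 463 to 193, a ratio of 1.08 (0.904 to 1.27). The libraries at 30 min lay below those at 0 min in wild type and, by a narrow margin, above them in the knockout. Opposite, non-overlapping recoveries of this kind were seen in 8.82% of tested transcripts. The interaction of genotype and time for GCN1 was 0.71 (SE 0.36, limma adjusted p = 0.418), where the median over all tested transcripts was 0.09. In the order of group means, wild type at 0 min stood apart from the other 3 groups, and those overlapped one with the next.

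EIF2AK4, the gene of the kinase GCN2, was at 14.9 and 9.86 RPKM in wild type at 0 min and at 11.8 and 11.5 RPKM at 30 min. The knockout had 9.53 and 9.77 RPKM at 0 min and 9.57 and 8.59 RPKM at 30 min. Every knockout library was below every wild-type library, although the gap between 9.77 and 9.86 RPKM is slight. Of the 9 genes this was the only one whose genotypes did not overlap over both times, while 4.34% of tested transcripts showed the same in either direction. On 94 knockout and 132 wild-type reads, summed over both times, the ratio of shares was 0.786 (0.597 to 1.03). It was 0.785 at 0 min and 0.773 at 30 min. The fitted difference was -0.31 (SE 0.21, 95% interval from -0.78 to 0.15, limma adjusted p = 0.618). The sign of the fitted difference was negative in each alternative and with each library left out, from -0.45 to -0.18.

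IMPACT, the inhibitor of GCN2 activation, was the lowest of the 9 on average. It was at 9.32 and 5.24 RPKM (wild type, 0 min), 6.34 and 4.67 RPKM (wild type, 30 min), 9.27 and 8.94 RPKM (knockout, 0 min) and 8.27 and 4.08 RPKM (knockout, 30 min). The genotypes overlapped at both times, and within the knockout both libraries at 30 min were below both at 0 min. Read shares at 30 over 0 min had a ratio of 0.695 (0.479 to 0.993) over both genotypes, on 43 and 119 reads. In the same comparison the intervals of GCN1, at 0.804 (0.721 to 0.896), and ETF1, at 0.796 (0.683 to 0.926), also lay below 1. How many of all tested transcripts had such intervals between the times was not computed. These ratios sum reads over both genotypes, whose shares of the reads differ between the times. The fitted change of IMPACT was -0.44 (SE 0.28, limma adjusted p = 0.381), beside a median of -0.19 over all tested transcripts. The genotype difference was 0.21 (SE 0.28, limma adjusted p = 0.834).

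DRG1, the ribosome-binding GTPase, had wild-type replicates that disagreed. At 0 min they were at 38.4 and 18.5 RPKM, a ratio of 2.07 with a counting interval from 1.31 to 3.34, and at 30 min at 39.3 and 31.4 RPKM. The knockout libraries were close together, at 23.2 and 21.6 RPKM at 0 min and 22.2 and 24.8 RPKM at 30 min. Of the wild-type libraries, 3 therefore lay above all 4 knockout libraries, and wild type at 0 min replicate 2 lay below them. The genotype difference was -0.40 (SE 0.23, 95% interval from -0.91 to 0.10, limma adjusted p = 0.546). At 30 min, where the genotypes did not overlap, it was -0.56 (SE 0.32, limma adjusted p = 0.558). Without wild type 0 min replicate 2 the average was -0.66, and without wild type 0 min replicate 1 it was -0.15.

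ZC3H15, which stabilises DRG1, was the highest of the 9 per transcript length. It was at 43.7 and 45.1 RPKM (wild type, 0 min), 50.7 and 56.2 RPKM (wild type, 30 min), 51.5 and 55.0 RPKM (knockout, 0 min) and 69.9 and 47.2 RPKM (knockout, 30 min). Both libraries of wild type at 0 min were lower than all other libraries. The ratio of read shares, knockout over wild type at 0 min, was 1.19 (0.969 to 1.46) on 217 and 168 reads. The fitted values were 0.26 (SE 0.23, limma adjusted p = 0.655) for genotype at 0 min and 0.19 (SE 0.16, limma adjusted p = 0.525) for recovery averaged over genotypes. Averaged over times, the genotype difference of ZC3H15 was 0.18 (SE 0.16, limma adjusted p = 0.721), of opposite sign to that of its partner DRG1, and neither passed the test. Without knockout 30 min replicate 1 it was 0.041, and without replicate 2 of that group it was 0.32. Leaving out the same libraries put the recovery of ZC3H15 at 0.046 and 0.32.

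ETF1, the gene of eRF1, had 34 to 208 reads a library. Wild type was at 32.8 and 34.8 RPKM at 0 min and at 30.9 and 32.5 RPKM at 30 min. The knockout was at 43.2 and 45.7 RPKM at 0 min and at 47.0 and 19.1 RPKM at 30 min. Of the knockout libraries, 3 lay above all 4 wild-type libraries, and knockout at 30 min replicate 2 lay below them. At 0 min the knockout share of reads was 1.31 times that of wild type (1.11 to 1.55), on 346 and 244 reads, and the fitted difference was 0.39 (SE 0.35, limma adjusted p = 0.657).

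The replicates of ETF1 in the knockout at 30 min differed 2.46-fold, with a counting interval from 1.59 to 3.87. Averaged over times the genotype difference was 0.16 (SE 0.24, limma adjusted p = 0.863). It was 0.47 (limma adjusted p = 0.195) without knockout 30 min replicate 2 and -0.16 without knockout 30 min replicate 1. Recovery averaged over genotypes was -0.32 (SE 0.24, limma adjusted p = 0.465) with all libraries. Without knockout 30 min replicate 1, the shallowest library, it was -0.63, and without replicate 2 of that group it was -0.0049. Each of these fits had only 1 library left in that group, so the size of the change rests on which library is kept.

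GSPT1, the gene of eRF3a, varied the least of the 9, with a highest value 1.49 times the lowest. It was at 37.1 and 30.2 RPKM (wild type, 0 min), 33.9 and 43.5 RPKM (wild type, 30 min), 33.2 and 31.2 RPKM (knockout, 0 min) and 38.5 and 44.8 RPKM (knockout, 30 min). The genotypes overlapped at both times, and in the knockout both libraries at 30 min were above both at 0 min. The genotype difference was 0.03 (SE 0.16, 95% interval from -0.33 to 0.39, limma adjusted p = 0.974), and its sign turned to -0.00767 with TPM scaling. Recovery averaged over genotypes was 0.28 (SE 0.16, limma adjusted p = 0.336), the highest of the 9, beside a median of -0.19 over all tested transcripts.

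**Figure D2:**
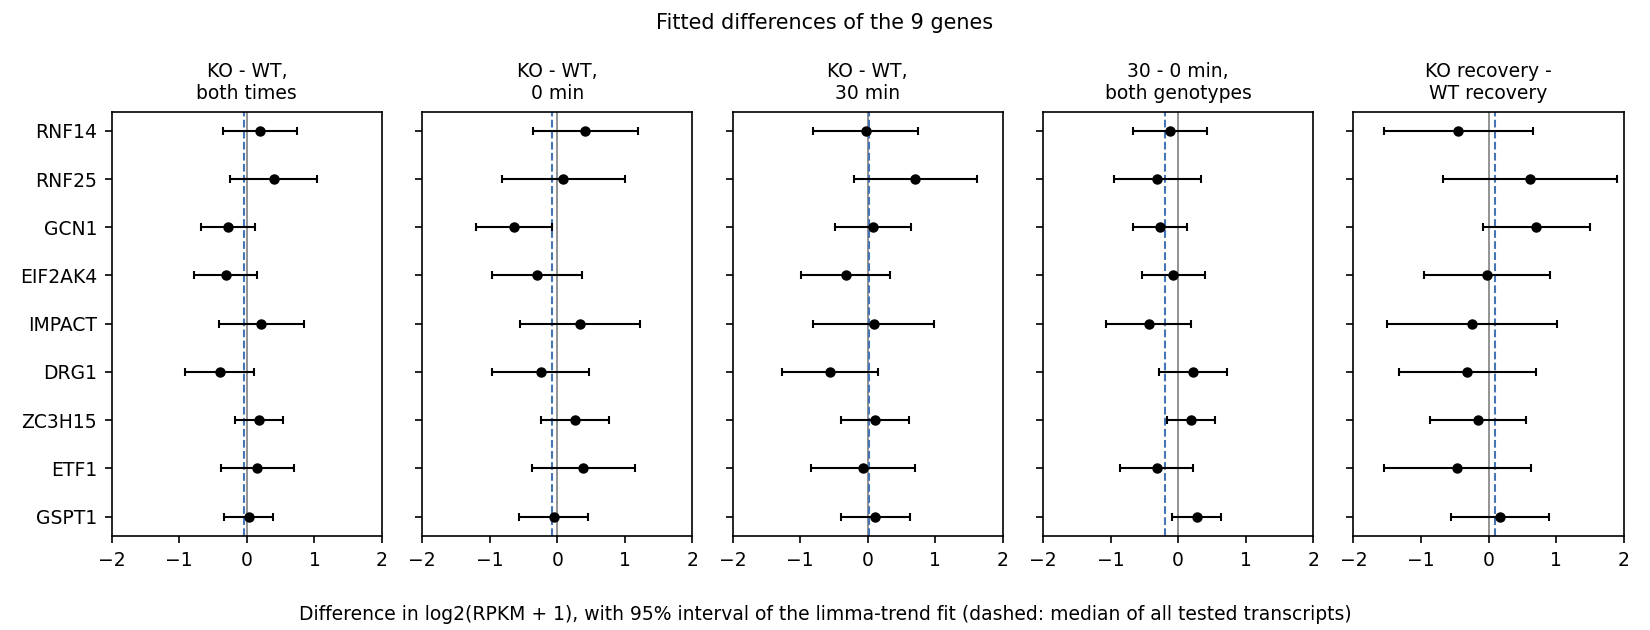
Fitted difference in log2(RPKM + 1) of each gene (points) with its 95% interval (bars) in 5 comparisons of wild type (WT) and knockout (KO); the grey line is 0 and the dashed line is the median of all tested transcripts. Among the 45 intervals, that of GCN1 at 0 min (-1.20 to -0.07) is the one that leaves out 0, and it did not pass after adjustment.

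As a group, none of the 9 passed the threshold in any comparison (limma-trend, Benjamini-Hochberg adjusted over 11920 transcripts). The smallest adjusted p was 0.546 for genotype averaged over times, where 0.378% of all tested transcripts were called. It was 0.317 for genotype at 0 min, where 0.168% were called, and 0.558 for genotype at 30 min, where 0.126% were called. For recovery averaged over genotypes it was 0.336, with 7.79% called, and for the interaction 0.418, with 0.00839% called. At an unadjusted p below 0.05 there was 1 of the 9, GCN1 at 0 min, in these 5 comparisons, where 11.2%, 13.6%, 10.9%, 24.3% and 13.3% of tested transcripts reached it, in the same order. Limma voom called GCN1 at 0 min and no other of the 9 in these 5 comparisons, where it called 1.48%, 6.95%, 0.176%, 11.3% and 1.05% of tested transcripts, again in that order. At call rates this low for genotype, a count of 0 among 9 genes does not set them apart from other transcripts. It does not show that they were alike in both genotypes either, since the 9 genotype differences averaged over times had intervals reaching as low as -0.91 (DRG1) and as high as 1.04 (RNF25) on the log2 scale.

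Directions within the group were mixed. For genotype averaged over times, 6 of the 9 were positive and 3 negative, with a median of 0.16 beside -0.03 for all tested transcripts. The negative ones were GCN1, EIF2AK4 and DRG1, and the positive ones were RNF14, RNF25, IMPACT, ZC3H15, ETF1 and GSPT1. For recovery averaged over genotypes, 3 were positive (DRG1, ZC3H15 and GSPT1) and 6 negative, with a median of -0.12 beside -0.19. That median of all transcripts was -0.39 with TPM scaling and -0.01 with median centring, which carried the sign of ZC3H15 to -0.02 under the former and those of EIF2AK4 and RNF14 to 0.11 and 0.06 under the latter. For the interaction, 3 were positive and 6 negative, with a median of -0.15 beside 0.09.

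Replicate ranges were compared with their background as well. At 0 min, 5 of the 9 had knockout and wild-type libraries that did not overlap, RNF14, ZC3H15 and ETF1 on the higher side in the knockout and GCN1 and EIF2AK4 on the lower, while 50.9% of tested transcripts did not overlap. At 30 min there were 2, EIF2AK4 and DRG1, both lower in the knockout, against 38.5% of tested transcripts. Between the times there were 5 in wild type, against 52.9%, and 3 in the knockout, against 49.5%. Over both genotypes together 0 of the 9 separated 0 from 30 min, against 13.2% of tested transcripts. Over both times together 1 of the 9, EIF2AK4, separated the genotypes, against 4.34%.

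**Figure D3:**
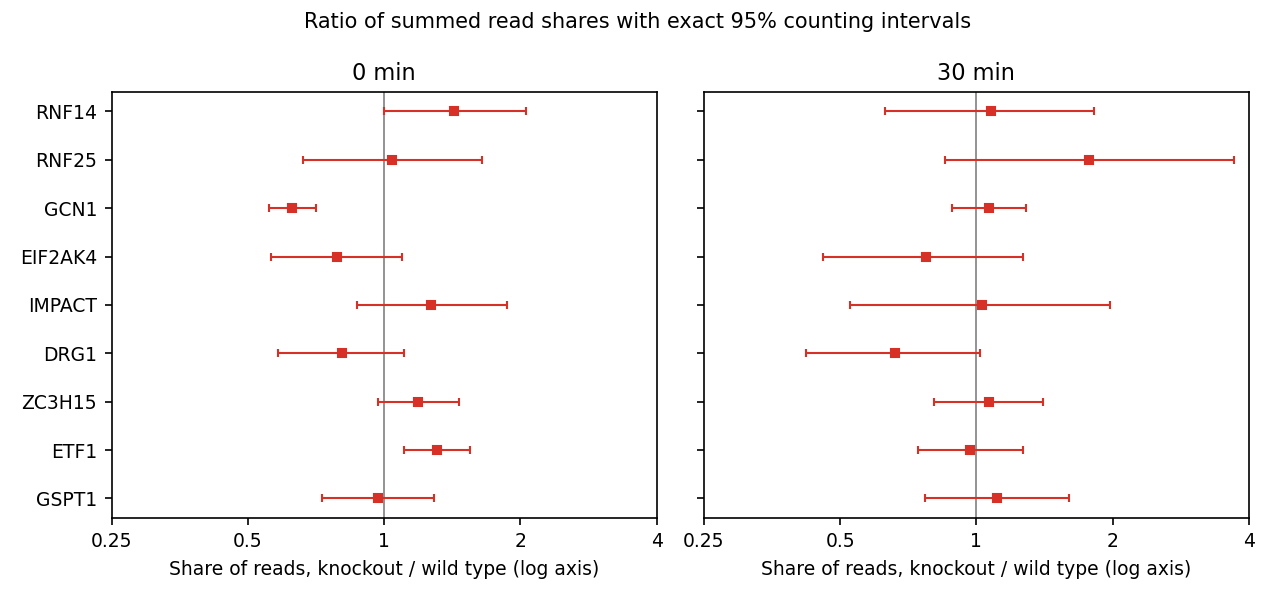
Share of a library's reads in the knockout over that in wild type for each gene, at 0 min (left) and 30 min (right), on a log axis, with exact 95% binomial intervals that cover counting error only. At 0 min GCN1 lies at 0.627 and ETF1 at 1.31 with intervals that leave out 1; at 30 min the intervals of all 9 include it. Of all tested transcripts, 37% at 0 min and 13.9% at 30 min had intervals that leave out 1.

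Counting intervals left out equal shares for 2 of the 9, GCN1 and ETF1, at 0 min, where those of 37% of tested transcripts did so, and for 0 of the 9 at 30 min, against 13.9%. Summed over both times they did so for 3 of the 9, against 30.4% of tested transcripts: GCN1, at a ratio of 0.750 (0.678 to 0.829), DRG1, at 0.734 (0.569 to 0.943), and ETF1, at 1.23 (1.07 to 1.41). Counting intervals take no account of the spread between libraries. Those summed over both times also give more weight to the deeper libraries at 0 min, and more so in the knockout. Replicates of 1 group differed beyond counting error for GCN1 and DRG1 in wild type at 0 min, GCN1 in wild type at 30 min and ETF1 in the knockout at 30 min. Of tested transcripts, 22.3% showed such replicate differences at 0 min and 7.1% at 30 min among wild-type libraries, and 9.02% and 7.97% did so in the knockout. The median gap between replicates over the 9 genes was 0.09 on the log2 scale in the knockout at 0 min, beside 0.25 for all tested transcripts, but 0.56 at 30 min, beside 0.40. The tested transcripts were not matched to the 9 genes for reads or level.

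The levels of the 9 genes fell into a lower and a higher set. Per transcript length, averaged over the 8 libraries, IMPACT (7.02 RPKM), RNF14 (8.14), EIF2AK4 (10.7) and RNF25 (13.7) were lowest, at the 31.9th to 53.2nd percentile of tested transcripts. DRG1 (27.5 RPKM), GCN1 (31.2), ETF1 (35.8), GSPT1 (36.6) and ZC3H15 (52.4) were higher, at the 73.3rd to 85.7th percentile. The lower set holds the 4 genes whose proteins carry an RWD domain. In 7 of the 8 libraries each of the 4 was below each of the other 5, and the exception was the shallowest, where RNF25 at 25.1 RPKM exceeded DRG1 at 22.2 RPKM. This grouping was seen in the values and has no test, and the lengths include untranslated regions, so the order per coding length may differ.

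**Figure D4:**
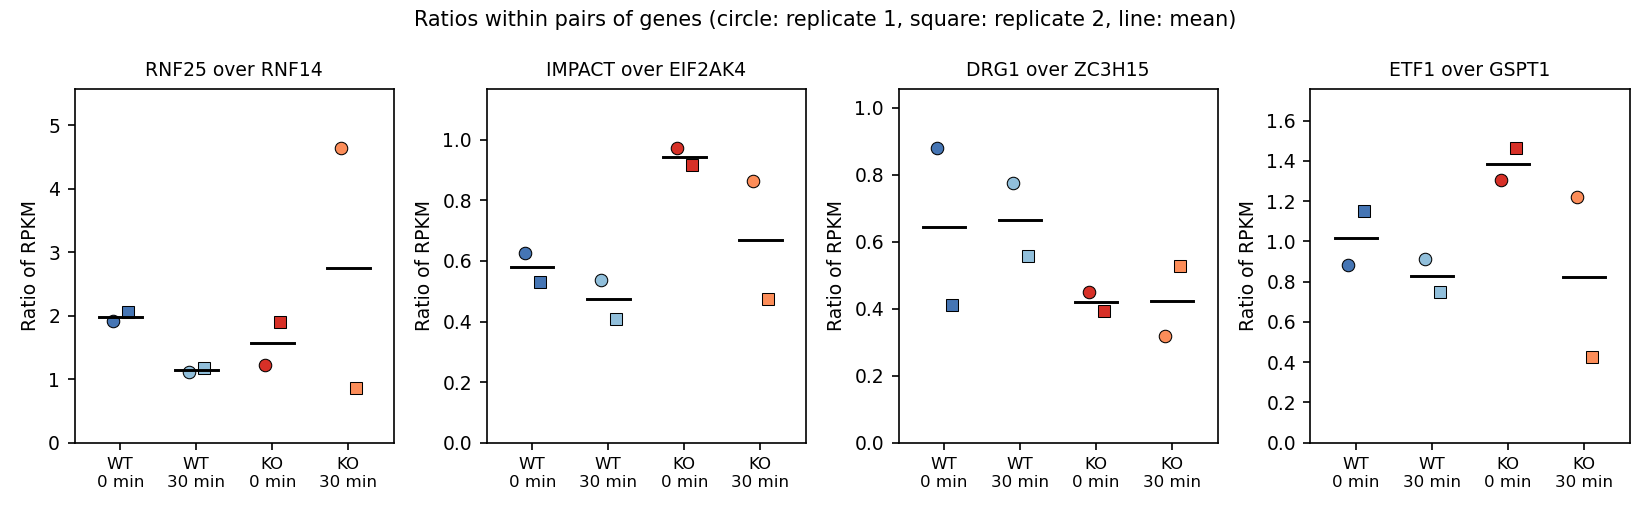
Ratio of RPKM values within 4 pairs of genes (vertical axes, each from 0) in wild-type (WT) and knockout (KO) libraries at 0 and 30 min; circles are replicate 1, squares replicate 2 and lines group means. IMPACT over EIF2AK4 is highest in both knockout libraries at 0 min, and the replicates of the knockout at 30 min lie far apart for RNF25 over RNF14 and for ETF1 over GSPT1.

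Ratios between partners within a library do not depend on how the library is scaled. The ratio of IMPACT, the inhibitor, to EIF2AK4, the kinase it restrains, was 0.627 and 0.531 directly after irradiation of wild type, then 0.538 and 0.407 after 30 min. In the knockout it was 0.973 and 0.915 at 0 min and 0.864 and 0.475 at 30 min. Of the knockout libraries, 3 were above all wild-type libraries, and knockout at 30 min replicate 2, with 7 reads on IMPACT, was inside their range.

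The ratio of ETF1 to GSPT1, the partners in termination, was 0.882 and 1.15 directly after irradiation of wild type, then 0.912 and 0.747 after 30 min. In the knockout it was 1.30 and 1.46 at 0 min and 1.22 and 0.426 at 30 min. Again 3 knockout libraries were above all wild-type libraries and knockout at 30 min replicate 2 was not, here being the lowest of all 8. The RPKM values of ETF1 alone placed the same libraries above and below, so this ratio is not a separate observation. The ratio of DRG1 to ZC3H15 ran from 0.318 to 0.881 with a median of 0.489, and the genotypes overlapped. The ratio of RNF25 to RNF14 ran from 0.855 to 4.64, and both of these extremes came from the knockout at 30 min, where the counts were 6 and 19 reads and 12 and 7 reads. The pairs were chosen for known partnership, and the ratios were neither tested nor compared with those of other pairs.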

How the data were processed

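Ribosome footprints of 15 to 70 nt were sequenced from 8 HAP1 libraries, per the labels' protocols, and were processed with cutadapt and STAR 2.7.10a on the build hg38, per the submitters' processing notes. The authors deposited RPKM values for 19580 transcripts with their lengths; the region counted is not given in the sources used here. RPKM times length gave whole reads for 100% of values above 0 (tolerance 0.05), so reads per transcript were recovered. For replicate 1 of the knockout at 30 min the column name has an unexplained ending, and genotype, time and replicate in the name were used to assign it.

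Tests used limma-trend (lmFit and eBayes of limma 3.58.1 in R 4.3.3) on log2(RPKM + 1), 4 group means in all 8 libraries, two-sided, Benjamini-Hochberg, threshold 0.05. The fit was first run on simulated reads with the same fixed spread for all transcripts. That spread was not matched to these libraries, so the run does not show how well the fit works on them. Alternatives were a pseudocount of 0.1, no filter, TPM scaling, median centring, limma voom on recovered reads, a replicate block and leaving out each library. Replicate numbers showed no shared effect in the values: replicate differences correlated between groups by -0.08 to 0.07. This cannot tell whether libraries of the same number were prepared together. The 9 genes, all named whatever their values, and the rule for the transcripts most like RNF14 were chosen with earlier results of these data known. Lists of further pathway genes and cell markers were not run, because the gene table used here held 0 Ensembl IDs; the names of the 9 come with their IDs. Python 3.11.15, numpy 2.4.6, pandas 2.3.3, scipy 1.17.1 and matplotlib 3.10.9 were used.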

Additional observations from a re-analysis of the deposited data

Results flagged for a closer look

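GCN1 was singled out because its replicates moved in opposite directions in the genotypes: both wild-type libraries at 30 min lay below both at 0 min, and both knockout libraries at 30 min lay above both at 0 min. The difference between the recoveries was 0.71 on the log2 scale (SE 0.36, limma adjusted p = 0.418), with adjusted p from 0.184 to 0.702 over the alternatives. The margin in the knockout was narrow, 28.1 against 28.3 RPKM, and 8.82% of tested transcripts showed opposite, non-overlapping recoveries. Groups of 2 allow no check for an outlying library.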

How the results depend on the processing

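Among the 45 results for single genes, 257 of 270 values under the 6 settings that kept all libraries, and 328 of 360 with 1 library left out, had the sign of the reported value and its side of the threshold. GCN1 at 0 min passed with limma voom, as reported. Recovery of ETF1 was -0.63 without knockout 30 min replicate 1 and -0.0049 without replicate 2 of that group, fits with only 1 library left in the group. The sign turned with TPM scaling for EIF2AK4 (0.15) and ZC3H15 (0.025) in the interaction, GSPT1 (-0.00767) in genotype averaged over times, RNF14 at 30 min (0.017), RNF25 at 0 min (-0.035) and ZC3H15 recovery (-0.019). It turned with median centring for recovery of EIF2AK4 (0.11) and RNF14 (0.057), GCN1 at 30 min (-0.00134), GSPT1 at 0 min (0.080) and GSPT1 in the interaction (-0.042), and with limma voom for RNF14 at 30 min (0.061). None of these values passed the threshold, and the cause was not tested. The sign also turned in at least 1 fit without a library for 25 results. For genotype averaged over times, the ranges were -0.16 to 0.47 (ETF1), -0.060 to 0.12 (GSPT1), -0.0055 to 0.43 (IMPACT), -0.013 to 0.40 (RNF14). For genotype at 0 min, the ranges were -0.75 to 0.26 (DRG1), -0.20 to 0.090 (GSPT1), -0.030 to 0.70 (IMPACT), -0.044 to 0.22 (RNF25). For genotype at 30 min, the ranges were -0.70 to 0.55 (ETF1), -0.18 to 0.33 (GCN1), -0.064 to 0.29 (GSPT1), -0.34 to 0.52 (IMPACT), -0.44 to 0.38 (RNF14), -0.18 to 0.38 (ZC3H15). For recovery, the ranges were -0.029 to 0.48 (DRG1), -0.21 to 0.068 (EIF2AK4), -0.32 to 0.088 (RNF14), -0.66 to 0.043 (RNF25). For the interaction, the ranges were -0.82 to 0.19 (DRG1), -0.30 to 0.25 (EIF2AK4), -1.09 to 0.17 (ETF1), -0.0091 to 0.34 (GSPT1), -0.68 to 0.19 (IMPACT), -0.084 to 1.32 (RNF25), -0.43 to 0.12 (ZC3H15).

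Counts over all tested transcripts depended on the setting. Genotype at 0 min had 20 calls, against 12 with no filter, 10 with a pseudocount of 0.1 and 829 (336 higher, 493 lower) with limma voom. Genotype averaged over times had 45, against 25 with a pseudocount of 0.1 and 176 with limma voom, and the interaction had 1, against 125 with limma voom. Recovery had 929 (292 higher, 637 lower), against 2165 (219 and 1946) with TPM scaling and 432 (342 and 90) with median centring. Leaving out 1 library gave 3 to 40 calls for genotype at 0 min, 8 to 126 at 30 min, 20 to 112 averaged over times, 225 to 1190 for recovery and 1 to 40 for the interaction; where it left a group with 1 library, that library was assumed to vary like the others. With replicate number as a block the counts were 18, 13, 40, 817 and 1 (genotype at 0 min, at 30 min and averaged, recovery, interaction), and no call among the 9 genes changed. At 6 to 370 reads a library, counting error was largest for RNF25, RNF14 and IMPACT. For GCN1, DRG1 and ETF1, replicates also differed beyond counting error in at least 1 group.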
